A study of Mus musculus with 8 samples.

Results

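The genes of intraflagellar transport and of the BBSome, the machinery that builds and supplies cilia, were followed in mouse lung after lipopolysaccharide (LPS), a bacterial cell-wall component that inflames the lung. The members were 36 genes chosen by name from the known subunits and partners of these complexes, and each was looked up by its symbol on the arrays. Of the 36, 35 were on the array with 47 probes, of 36085 gene names in all, and 34 were tested among 24436 genes. The arrays held total RNA of whole lung from 4 C57BL/6 mice with the wild-type genotype and from 4 C57BL/6 mice with a GGPPS1 knockout, which the series describes as specific to the lung. All 8 animals carried the same LPS treatment, and all were sampled at 12 h. No untreated lung was analysed here, so every difference lies between 2 LPS-treated groups. GGPPS1 (mouse gene Ggps1) makes the geranylgeranyl lipid that anchors many small GTPases to membranes. The promoter that drives the deletion, the cells that carry it, and the age and sex of the animals are not given in the sources used here.

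A cilium has no ribosomes, so its proteins travel in from the cell body on intraflagellar transport trains. IFT-B complexes move outwards along the microtubules with kinesin-2 motors, IFT-A complexes and dynein-2 bring the trains back, and the BBSome is a membrane coat, recruited by the GTPase ARL6, that carries membrane proteins out of the cilium. In the lung the same machinery serves the many motile cilia of multiciliated airway cells and the single, non-motile primary cilium found on many other cell types. In whole tissue, fewer cells of a type and less RNA per cell cannot be told apart.

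Array quality differed between the groups. Well above background were 63.6 ± 1.8% of spots in the wild-type arrays, against 59.8 ± 1.5% in the knockout arrays (mean ± SD, n = 4 each, two-sided exact permutation p = 0.0571, where the smallest possible p is 0.0286). Probes at the surrogate value that the scanner software gives to signals it cannot tell from background made up 17.4 ± 2.2% in wild-type arrays and 23.1 ± 1.7% in knockout arrays (n = 4 each, exact permutation p = 0.0286). These shares did not overlap between the groups, from 15.1 to 20.0% against 20.8 to 24.5%, and their part in the differences of the members was not tested. All arrays lay on 1 slide, the wild-type arrays in row 1 and the knockout arrays in row 2, so position and genotype cannot be told apart. The Ggps1 probe (mm9 chr13:14145961-14146020) read between 1.26 and 1.40 in wild-type and between 1.22 and 1.32 in knockout lung, a log2 difference of -0.06 ± 0.068 (SE, limma adjusted p = 0.608). It does not check the genotype, since the labels do not say which part of the gene was deleted. Levels are log2 signals with each array's 75th percentile set to 0, and differences are knockout minus wild-type.

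Transcripts of most members read somewhat higher in the knockout lungs, by amounts that did not pass the test over all genes. Of the 34 tested members, 28 had the higher mean in knockout lung and 6 the lower, where 45.6% of all genes were higher. The median member difference was 0.21 on the log2 scale, or 1.16-fold, with quartiles of 0.11 and 0.33 and a range from -0.24 to 0.49. Over all genes the median difference was -0.03. By role, the subunits of the BBSome coat had the highest median, and the only member with an unadjusted limma p under 0.05 in the lower direction was Mkks, a chaperonin-like assembly factor.

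No member was called by limma at an adjusted p of 0.05. Among all genes, 15 were called, or 0.0614%, of which 8 (0.0327%) were higher and 7 (0.0286%) lower. The smallest member value was that of Ift88, at an adjusted p of 0.0941. At an unadjusted p under 0.05, which 23.6% of all genes reached in either direction, 11 members were higher, or 32.4% of those tested, where 10.1% of all genes were. In the lower direction there was 1 member, or 2.94%, where 13.5% of all genes were. Without wild-type replicate 2 the 11 higher members became 6, where 7.18% of all genes were higher at this threshold. Without knockout replicate 4 they became 7, where 8.09% of all genes were. In 8 members (23.5%) every knockout sample lay above every wild-type sample, which was true of 6.08% of all genes. These were Ift57, Ift81, Ift88, Ift122, Bbs1, Bbs5, Arl6 and Arl13b. Mkks showed the opposite order, as did 9.26% of all genes. The labels give each sample as lung tissue with a number, and the p-values measure the spread between these 4 and 4 samples.

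**Figure D1:**
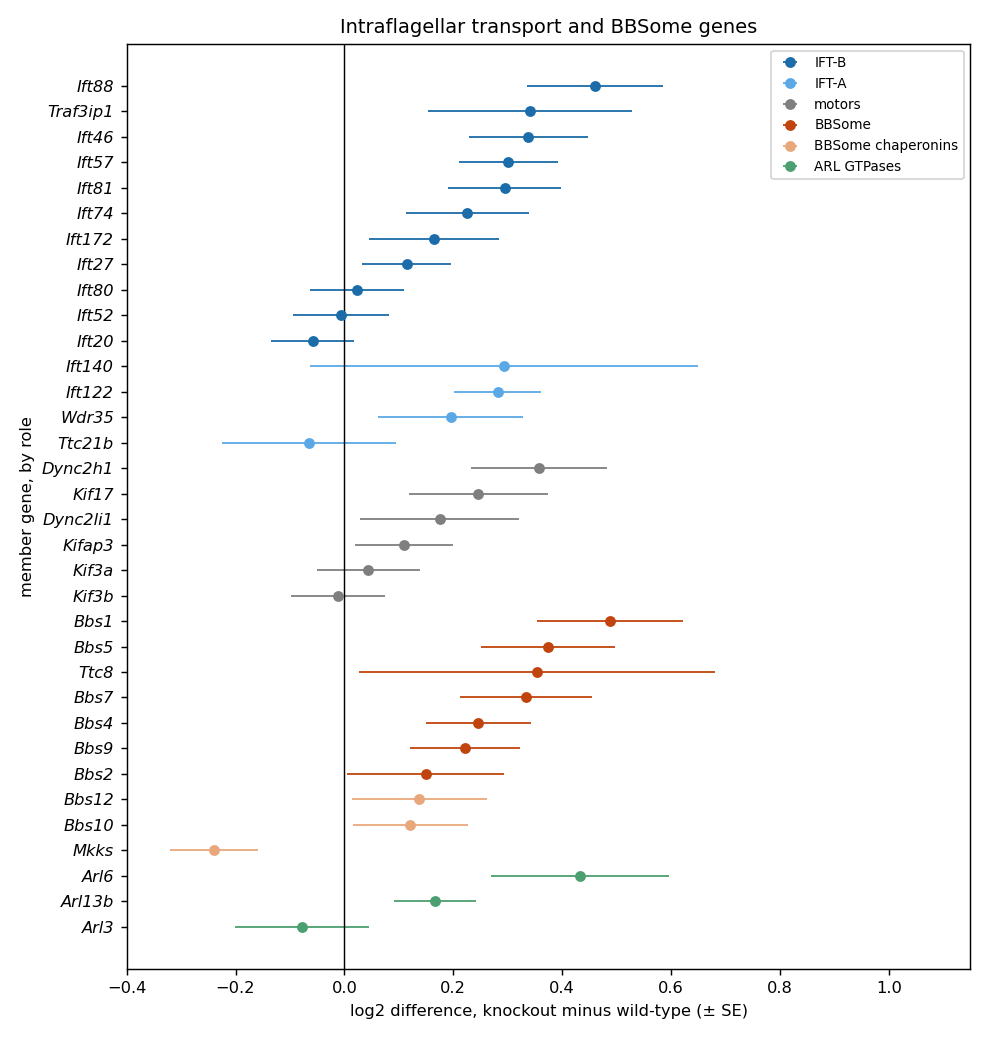
Log2 difference between knockout and wild-type lung for the 34 tested members, ordered by role, with the limma standard error as a bar (n = 4 per group). Most points lie right of 0, between -0.24 for Mkks and 0.49 for Bbs1, and all 7 BBSome subunits among the members are on the positive side.

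The promoters of the members were read from RefSeq (GRCm38.p6), from 250 bases before to 50 bases after each start. Of the 36 members, 32 were matched by symbol, and Ift80, Ift81, Ift122 and Dync2li1 were not. The motif GTTGCCA, an arm of the X-box that RFX factors bind in ciliary promoters, stood on either strand in 6 of 32 members (18.8%), against 5.025% of 27025 genes. These 6 stretches of 30 bases are shown because RFX factors are the best known regulators of genes that both kinds of cilium share. Each is written 5′ to 3′ on the strand of its gene, with the motif or its reverse complement in capitals.
Ift88: ggagtcgcgccTGGCAACggctgggcgtcc
Ift27: ggttgatgatgGTTGCCAggagcctgtttg
Traf3ip1: ggcgcgcgtccGTTGCCAaggccgcgcggc
Wdr35: gatgcgactgggcggcggtgGTTGCCAggc
Dync2h1: catagcgacggagctTGGCAACtgctgagt
Bbs1: tggctgagctgGTTGCCAaggcgacgcctg

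The stretches lie at chr14:57424080-57424109 (plus strand, Ift88), chr15:78174072-78174101 (minus, Ift27), chr1:91494578-91494607 (plus, Traf3ip1), chr12:8974021-8974050 (plus, Wdr35), chr9:7177009-7177038 (minus, Dync2h1) and chr19:4906608-4906637 (minus, Bbs1) of GRCm38.p6. Ift88, Dync2h1 and Bbs1 were among the 11 members with an unadjusted limma p under 0.05 in the higher direction, and Ift27, Traf3ip1 and Wdr35 were not. Those 11 were 32.4% of all tested members, where 10.1% of all genes reached this, and a link to the motif was not tested. Ift81 and Ift122, both among the 11, had no promoter window. The forkhead core TGTTTAC, on either strand, was in 0 of the 32 member windows and in 4.05% of all genes. The SP1 box GGGCGG, a common promoter motif, was in 23 of 32 members (71.9%) and in 38.2% of all genes. None of these 3 motifs contains another, and a match in a window is a description of its letters.

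IFT-B is the train complex that carries tubulin and axonemal cargo outwards. All 11 of its members on the array were tested, 9 were higher and 2 lower in knockout lung, and their median difference was 0.23. Ift88, a core subunit whose loss in mice stops ciliary assembly, read 1.16, 0.94, 1.16 and 0.98 in the wild-type samples, listed here and throughout from replicate 1 to 4, and 1.27, 1.46, 1.52 and 1.82 in the knockout samples (probe at mm9 chr14:58136714-58136773). The groups did not overlap, and knockout replicate 4 was the highest. The difference was 0.46 ± 0.12 (SE), or 1.38-fold (limma adjusted p = 0.0941).

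Ift57, a subunit at the periphery of IFT-B, read 2.47, 2.57, 2.37 and 2.55 in wild-type and 2.61, 2.81, 2.83 and 2.93 in knockout lung (mm9 chr16:49764123-49764182). Its groups were separate, by a narrow margin between wild-type replicate 2 and knockout replicate 1. The difference was 0.30 ± 0.091 (limma adjusted p = 0.113). Ift46, which serves the import of outer dynein arms, read 3.16, 2.88, 2.82 and 2.87 in wild-type and 3.14, 3.29, 3.18 and 3.47 in knockout lung (mm9 chr9:44598913-44598972). Wild-type replicate 1 reached into the knockout range, so the groups overlapped. The difference was 0.34 ± 0.11 (limma adjusted p = 0.126), and a second, dimmer probe of the gene gave 0.50. Ift81, which forms a tubulin-binding module with Ift74, read -0.40, -0.78, -0.49 and -0.77 in wild-type and -0.36, -0.31, -0.34 and -0.25 in knockout lung (mm9 chr5:123009165-123009224). The knockout samples lay close together and above all wild-type samples, with wild-type replicates 2 and 4 far below. The difference was 0.29 ± 0.10 (limma adjusted p = 0.149).

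The remaining IFT-B members differed by less or varied more. Ift74 differed by 0.23 ± 0.11, Traf3ip1 (the subunit IFT54) by 0.34 ± 0.19, the large adaptor subunit Ift172 by 0.16 ± 0.12 and the small GTPase Ift27 by 0.11 ± 0.082. Ift80 differed by 0.02 ± 0.086, the scaffold subunit Ift52 by -0.01 ± 0.089 and Ift20, which also works at the Golgi, by -0.06 ± 0.077. The last 3 lay within 1 standard error of 0. Without knockout replicate 4 Ift74 was at 0.15 and Ift172 at 0.083, and without wild-type replicate 1 Traf3ip1 was at 0.19. The IFT-B members thus held differences from -0.06 to 0.46, with none past the test. Among IFT-B subunits outside the member list, described further below, Ttc30a2 at 0.65 and Ift22 at -0.30 lay beyond this range.

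IFT-A, the complex for the way back and for the entry of membrane receptors, had 6 members of which 4 were tested. Ift122, a core subunit, read 1.19, 1.06, 1.30 and 1.22 in wild-type and 1.49, 1.44, 1.39 and 1.57 in knockout lung (mm9 chr6:115876636-115876695). All knockout samples were above all wild-type samples. The difference was 0.28 ± 0.080 (limma adjusted p = 0.101), and a second probe gave 0.26. Ift140, another core subunit, read -4.33, -4.77, -4.55 and -5.55 in wild-type and -5.37, -4.12, -4.03 and -4.51 in knockout lung (mm9 chr17:25172684-25172743). This probe was dim, well above background on 3 of 4 arrays in each group, and the groups overlapped widely. The difference was 0.29 ± 0.36 (limma adjusted p = 0.641) and ranged from 0.04 to 0.58 over the 18 settings in which it could be tested.

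Wdr35 (the subunit IFT121) differed by 0.20 ± 0.13, and by 0.091 without wild-type replicate 2. Ttc21b (IFT139) differed by -0.07 ± 0.16, while its other probe, not well above background on any array, gave 0.15. Wdr19 (IFT144) was not tested, since its only probe was well above background on 1 wild-type array and 0 knockout arrays. It read -7.51, -3.64, -6.33 and -5.67 in wild-type and -7.09, -6.54, -6.92 and -5.54 in knockout lung. Ift43 had no probe under that name. By its RefSeq accession a probe filed under the older name 1700019E19Rik is Ift43 (mm9 chr12:87503290-87503349), and this gene, outside the naming rule, differed by 0.03 ± 0.11 (limma adjusted p = 0.905).

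Of the 6 motor genes 5 were higher in knockout lung, with a median difference of 0.14. Dync2h1, the heavy chain of dynein-2 that powers the return, read 0.28, 0.07, 0.20 and 0.03 in wild-type and 0.36, 0.63, 0.27 and 0.76 in knockout lung (mm9 chr9:6929350-6929409). Knockout replicate 3 fell just below wild-type replicate 1, and knockout replicates 2 and 4 stood well above the rest. The difference was 0.36 ± 0.13 (limma adjusted p = 0.148). Its light intermediate chain Dync2li1 differed by 0.18 ± 0.15, and by 0.061 without knockout replicate 4. Of the heterotrimeric kinesin-2, which drives the outward trains, Kif3a differed by 0.04 ± 0.094, Kif3b by -0.01 ± 0.086 and the accessory subunit Kifap3 by 0.11 ± 0.090. Further probes gave -0.03 for Kif3a and -0.30 for Kif3b. Kif17, a homodimeric kinesin-2, differed by 0.25 ± 0.13, and its other probe, not well above background on any array, gave -0.22. The difference between dynein-2 and kinesin-2 genes was not tested.

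All 7 BBSome subunits among the members were higher in knockout lung, with a median difference of 0.33. None of the 7 changed direction under any of the 19 settings, which was also true of most other members. Bbip1, a BBSome subunit outside the member list, differed by 0.0023 ± 0.086, and it was named after its value had been seen. Bbs1, a propeller subunit that contacts ARL6, read 0.23, -0.28, 0.02 and -0.05 in wild-type and 0.56, 0.38, 0.26 and 0.67 in knockout lung (mm9 chr19:4887034-4887093). The groups were separate, with wild-type replicate 1 close to knockout replicate 3. At 0.49 ± 0.13, or 1.40-fold, this was the largest difference among the tested members (limma adjusted p = 0.0957). A second Bbs1 probe gave 0.24.

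Bbs5, a subunit with lipid-binding domains, read -0.58, -0.91, -0.59 and -0.82 in wild-type and -0.40, -0.41, -0.51 and -0.07 in knockout lung (mm9 chr2:69505331-69505390). No samples overlapped, and knockout replicate 4 stood apart from the other three. The difference was 0.37 ± 0.12 (limma adjusted p = 0.131), with 0.17 from a second probe. Bbs7, a propeller subunit, read -0.84, -1.37, -1.06 and -1.12 in wild-type and -0.67, -0.82, -0.89 and -0.66 in knockout lung (mm9 chr3:36472204-36472263). The groups overlapped through wild-type replicate 1. The difference was 0.33 ± 0.12 (limma adjusted p = 0.159), with 0.18 from a second probe.

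Bbs4, a subunit also found on the satellites around centrosomes, read 1.22, 1.20, 1.23 and 1.40 in wild-type and 1.51, 1.54, 1.30 and 1.68 in knockout lung (mm9 chr9:59170040-59170099). Wild-type replicate 4 was above knockout replicate 3, and the other samples kept apart. The difference was 0.25 ± 0.097 (limma adjusted p = 0.18). Bbs9 differed by 0.22 ± 0.10, Bbs2 by 0.15 ± 0.14 and Ttc8 (BBS8) by 0.35 ± 0.33. Ttc8 varied most within groups among these subunits, from -1.66 to -0.74 in wild-type and from -1.58 to -0.13 in knockout lung. Leaving out knockout replicate 4 put Ttc8 at 0.067, leaving out other samples put it as high as 0.55, and Bbs2 ran from 0.055 (without wild-type replicate 2) to 0.23 (without wild-type replicate 3).

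The chaperonin-like proteins that assemble the BBSome did not share the direction of its subunits throughout. Mkks (BBS6) read 0.26, 0.08, 0.27 and 0.04 in wild-type and -0.01, -0.11, -0.08 and -0.10 in knockout lung (mm9 chr2:136699571-136699630). All 4 knockout samples lay below all 4 wild-type samples. The difference was -0.24 ± 0.081 (limma adjusted p = 0.136). Bbs12 differed by 0.14 ± 0.12, and Bbs10 by 0.12 ± 0.11 on its brighter probe and by -0.14 on the other.

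Arl6 (BBS3), the GTPase that brings the BBSome to membranes, read 0.63, 0.59, 0.64 and 0.64 in wild-type and 0.82, 1.13, 0.75 and 1.52 in knockout lung (mm9 chr16:59613437-59613496). The wild-type samples were nearly level and the knockout samples spread widely above them. The difference was 0.43 ± 0.16, or 1.35-fold (limma adjusted p = 0.168), and a second probe gave 0.46. Without knockout replicate 4 the difference was 0.28. Arl3, which unloads lipid-modified proteins inside the cilium, differed by -0.08 ± 0.12. Arl13b, the exchange factor that activates ARL3, differed by 0.17 ± 0.076 (limma adjusted p = 0.229), with 0.16 from a second probe. Its levels ran from 0.15 to 0.36 in wild-type and from 0.41 to 0.49 in knockout lung, without overlap.

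**Figure D2:**
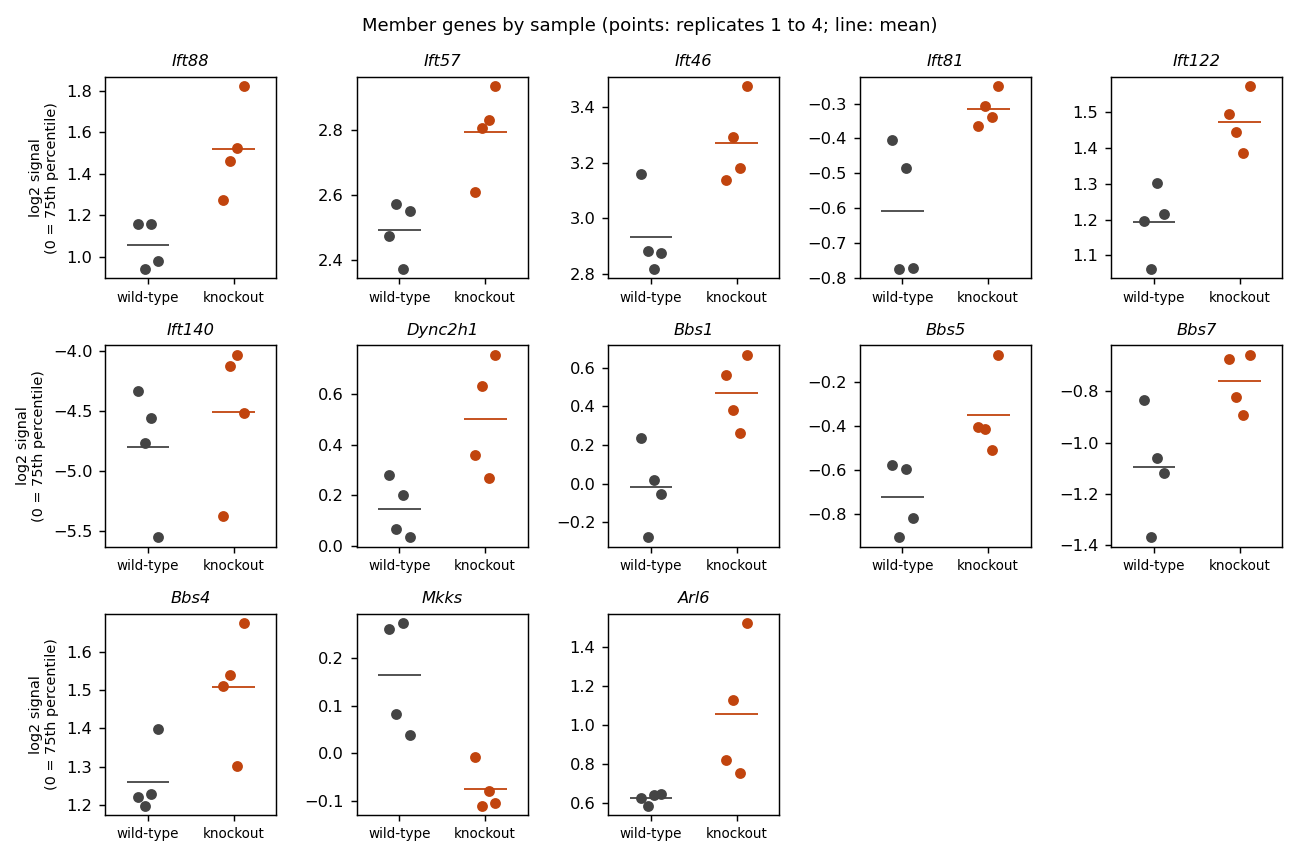
Log2 signal, with the array's 75th percentile at 0, in each of the 4 wild-type and 4 knockout samples for the 13 members described with all their values; lines are group means and each panel has its own axis range. Knockout samples lie above in 12 panels by mean and below in Mkks, and the groups overlap in Ift46, Ift140, Dync2h1, Bbs7 and Bbs4.

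The samples did not contribute evenly. Knockout replicate 4 held the highest value in 20 of the 34 tested members, and wild-type replicate 2 the lowest in 15. The mean over the members was 0.19, -0.01, 0.12 and -0.0047 in wild-type samples, against 0.21, 0.27, 0.18 and 0.41 in knockout samples. Knockout replicate 3 was thus just below wild-type replicate 1, and the other knockout samples were above all wild-type samples. Without knockout replicate 4 the median member difference was 0.14 and 29 of 34 members were higher, and without wild-type replicate 2 it was 0.16.

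Other ciliary genes give the scale for these differences, and none of the genes listed here was called by limma in the main comparison. Of 15 further subunits and partners of IFT, the BBSome and dynein-2, 11 were higher, with a median difference of 0.13. The 3 with the smallest p were Ttc30a2, an IFT-B subunit, at 0.65 ± 0.15 (limma adjusted p = 0.0742), Rabl2 at 0.48 ± 0.15 and Ttc26 (IFT56) at 0.42 ± 0.15. Ift22, an IFT-B subunit named after its value had been seen, was the 1 gene of this list with an unadjusted p under 0.05 in the lower direction, at -0.30 ± 0.12. Of 22 genes of the transition zone and basal body, the gate at the foot of the cilium, 18 were higher, with a median of 0.20, close to that of the members. Tctn2 differed by 0.55 ± 0.15 (limma adjusted p = 0.0952) and Mks1 by 0.42 ± 0.12. Hedgehog signalling passes through the primary cilium. Of its 8 tested genes 4 were higher and the median was 0.02, with Gli1, a target of the pathway, at 0.58 ± 0.25 (limma adjusted p = 0.215), Gli3 at 0.21 ± 0.085 and Sufu at -0.15 ± 0.099.

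Genes that serve motile cilia had a larger median difference than the shared machinery. Of 33 tested axonemal dynein, radial spoke and regulator genes, 32 were higher and the median was 0.53, or 1.44-fold, against 0.21 for the members. The gap between the medians, 0.32, ran from 0.24 to 0.44 over the 19 settings, and whether the lists differ was not tested. The motile genes also varied more within groups, with a median SD of 0.319 against 0.165 for the members. At an unadjusted limma p under 0.05, 18 motile genes (54.5%) were higher, against 32.4% of members and 10.1% of all genes. Drc1, a dynein regulator, differed by 0.73 ± 0.14 (limma adjusted p = 0.0625), Cfap43 by 0.93 ± 0.20 and the axonemal heavy chain Dnah10 by 0.78 ± 0.18. Of 9 tested regulators of multiciliated cells 6 were higher, with a median of 0.15. Foxj1, the master factor of motile cilia, differed by 0.59 ± 0.13 (limma adjusted p = 0.0734), Myb by 0.68 ± 0.14 and Deup1, which amplifies centrioles, by 0.71 ± 0.15. The list did not have a shared direction. E2f4, which works with the multiciliation programme, differed by -0.24 ± 0.10 (limma adjusted p = 0.192), Rfx3 by -0.37 ± 0.25 and Rfx2 by 0.17 ± 0.24, and these 3 were named after their values had been seen.

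**Figure D3:**
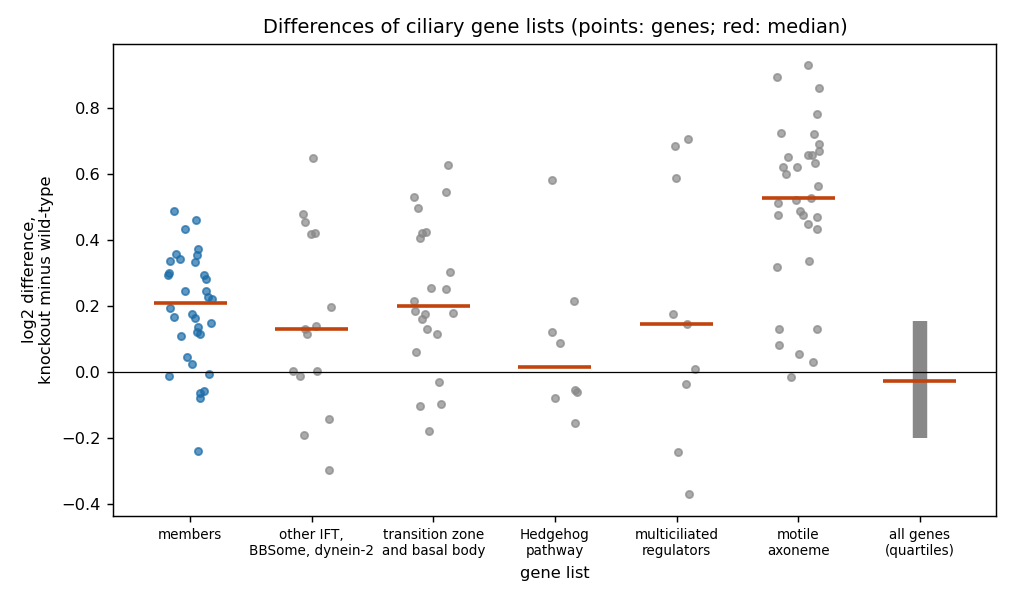
Log2 differences, knockout minus wild-type, of the genes in each ciliary list, with 1 point per tested gene, the list median in red, and the quartiles of all genes as a grey bar. The member median is 0.21, that of the motile axoneme list 0.53, and that of all genes -0.03.

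The levels of many members also ran parallel to the motile genes from sample to sample. The mean of the 33 motile axoneme genes was -0.17, -0.58, -0.40 and -0.65 in wild-type samples, against -0.07, 0.10, -0.28 and 0.47 in knockout samples, so knockout replicate 3 lay within the wild-type range. This measure was chosen after the values had been seen. Over the 8 samples, 14 of 34 members (41.2%) had a Pearson r above 0.8 with this mean, where 5.31% of the 24403 genes outside the motile list did. The median r was 0.72 for members and -0.09 for other genes. With each group's mean removed it was 0.59 and -0.03, and without knockout replicate 4 and wild-type replicate 4, the samples farthest from the median, it was 0.60 and -0.02.

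Dync2h1 was the member most like the motile mean, with r = 0.98 (permutation p = 2.48e-05, the smallest possible, adjusted over all genes 0.0209) and Spearman's rho = 1 (permutation p = 4.96e-05). Ift74 had r = 0.973 (permutation p = 0.000223, adjusted 0.0287) and rho = 0.929 (permutation p = 0.00223). Bbs5 had r = 0.957 (permutation p = 0.000446, adjusted 0.0405) and rho = 0.929 (permutation p = 0.00223). Without the 2 samples farthest from the median, r was 0.953, 0.931 and 0.88 in that order. With each group's mean removed, r was 0.955, 0.966 and 0.904, and no p-value was computed for this form. The permutations ran over all 8 samples without regard to group, so their p-values also take in the difference between the groups. They belong to a measure chosen after the values had been seen. Dync2h1, Ift74 and Bbs5 were the 3 of 34 members with an adjusted permutation p under 0.05. Of the genes outside the motile list, 1.61% reached it with either sign and 1.23% with r above 0. At the other end Mkks had r = -0.497, Kif3b -0.361, Ift20 -0.304 and Ttc21b -0.261. With each group's mean removed, r was 0.309 for Mkks, -0.462 for Kif3b, -0.043 for Ift20 and -0.222 for Ttc21b. Without the 2 farthest samples it was -0.469, -0.674, -0.56 and 0.149 in the same order, so Kif3b and Ift20 kept a negative r in all 3 forms, and Mkks and Ttc21b did not.

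**Figure D4:**
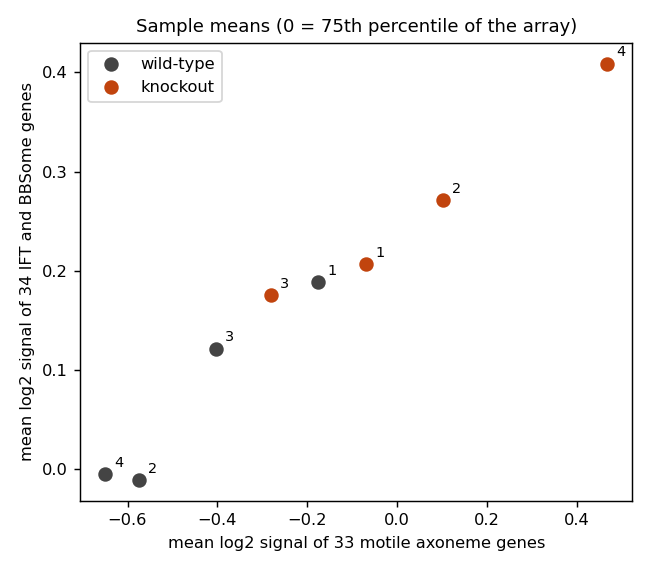
Mean log2 signal of the 34 tested members against that of the 33 motile axoneme genes, 1 point per sample, with 4 wild-type and 4 knockout samples. Knockout replicate 4 is highest on both axes, at 0.47 and 0.41, and knockout replicate 3 lies among the wild-type samples.

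**Figure D5:**
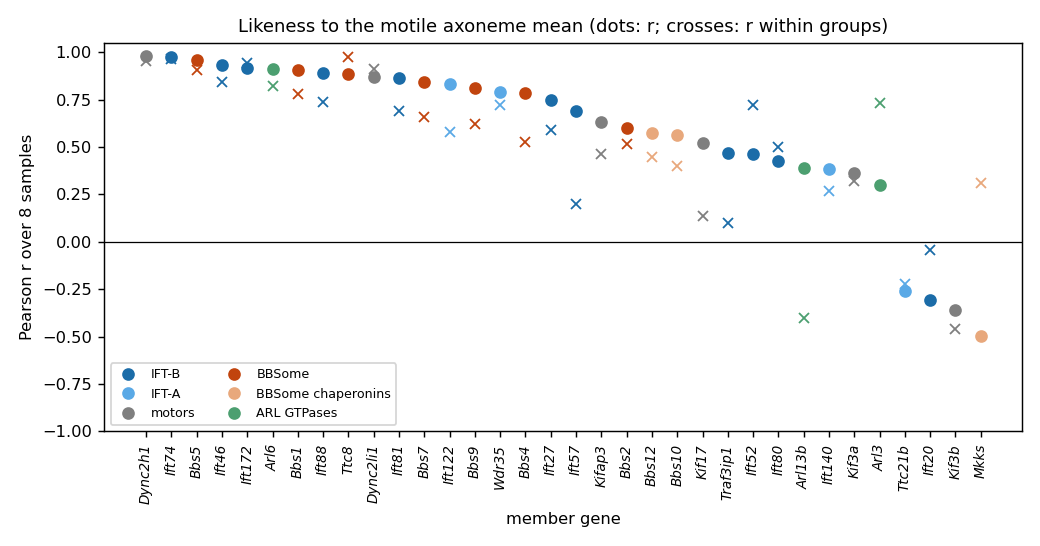
Pearson r over 8 samples between each member and the motile axoneme mean (dots), and the same with each group's mean removed (crosses), coloured by role. Dync2h1, Ift74 and Bbs5 are at the top, and Mkks, Kif3b, Ift20 and Ttc21b have dots below 0.

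Marker genes of several cell types also differed in level between the groups. All 12 ciliated cell markers were higher in knockout lung, with a median difference of 0.55, and their mean level ran from 1.42 to 1.86 in wild-type and from 1.89 to 2.71 in knockout samples. All 10 club cell markers were higher (median 1.16), from 1.48 to 5.18 in wild-type and from 2.44 to 6.24 in knockout samples, and 12 of 13 cardiac muscle markers were higher (median 1.65), from -1.04 to 3.05 and from 0.70 to 3.31. Smooth muscle markers were higher in 8 of 9 (median 0.58, from 0.49 to 1.52 and from 0.86 to 2.53) and cell cycle genes in 11 of 11 (median 0.51, from -0.997 to -0.38 and from -0.38 to -0.05). Alveolar type 1 markers were higher in 0 of 9 (median -0.42, from 3.51 to 4.17 and from 2.50 to 3.70), and monocyte and macrophage markers in 0 of 9 (median -0.76, from 2.32 to 2.69 and from 1.52 to 2.13). The medians were -0.20 for alveolar type 2 (2 of 9 higher), -0.30 for neutrophil (2 of 8), -0.23 for fibroblast (3 of 9) and -0.18 for endothelial markers (3 of 8). In knockout samples, the motile order, with replicates 2 and 4 highest, recurred in some lists. Replicates 1 to 4 read 4.12, 6.24, 2.44 and 6.17 for club cell and 0.86, 2.19, 1.11 and 2.53 for smooth muscle markers. They read 1.53, 3.31, 0.70 and 3.12 for cardiac and, reversed, 3.38, 2.86, 3.70 and 2.50 for type 1 markers. Cell cycle genes, at -0.05, -0.15, -0.22 and -0.38, did not share it. Wild-type replicate 1 was highest for motile genes but lowest for cardiac markers. No marker in these lists was called by limma, and all 9 type 1 and all 9 type 2 alveolar markers of the labelled tissue passed the background filter. Their part in the differences of the members was not tested.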

How the data were processed

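Whole-lung total RNA was labelled with Cy3 for 1-colour Agilent arrays, per the labels' protocols, 1 array per sample. The scanner software was Agilent Feature Extraction (10.7.1.1), per the submitters' processing notes and the file headers. The deposited intensity values are background-subtracted processed signals, with a surrogate value where a signal cannot be told from background. The deposited table of log2 values by the authors correlated with the scanner signals at r of 0.999 or above on every array and had a median of 5.63 in all columns. The labels do not say how its values were scaled and centred.

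Control spots and outlier spots (154 to 245 per array) were left out, spots of a probe were averaged, and log2 processed signals were set to the array's 75th percentile. A probe was kept when well above background on 3 of the 4 arrays of a group, and the brightest kept probe stood for its gene. No probe was saturated. Of 55660 probes, 26574 were named by RefSeq accession, 2601 by symbol and 492 by synonym in a table of GRCm38.p6 (names only), and the others kept the file's name. Probe positions are those in the files (mm9); whether a probe lies in coding or untranslated sequence was not analysed here.

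A limma model (version 3.58.1, R 4.3.3; lmFit and eBayes, two-sided) set knockout against wild-type, adjusted by Benjamini-Hochberg over 24436 genes at 0.05. All p-values called limma come from this fit, and the number of arrays limits the precision. Motif and likeness counts are descriptions; correlations used exact permutation over the 8 samples, adjusted over 24403 genes. Figures were drawn with matplotlib 3.10.9.

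The members, roles and lists (5 ciliary and 11 marker lists) were chosen with earlier results of these data known. All values are given for members with an unadjusted p under 0.05, and for the member of each role with the smallest p or the largest difference. At most 3 genes with the smallest p are named per list, and 1 such gene is not reported here. Alternatives were normexp with an offset of 50, quantile normalization, median centring, the deposited table, no filter, all 8 arrays above background, the mean of a gene's probes, a replicate block, an intensity trend, array weights and leaving out each sample. The fit was tested on simulated data.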

Additional observations from a re-analysis of the deposited data

Results flagged for a closer look

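In 74 groups of 4 samples, 2 held a sample far from its 3 neighbours by Dixon's criterion (the gap to the nearest sample over the range), and chance gives about 1 in 20. Arl13b in knockout replicate 1 read 0.49 where the other knockout samples read 0.41 to 0.42 (ratio 0.84). Bbs4 in wild-type replicate 4 read 1.40 where the other wild-type samples read 1.20 to 1.23 (ratio 0.85).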

How the results depend on the processing

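Over 19 settings 0 members were called, and the smallest adjusted p of a member was 0.0658. Between 26 and 29 members were higher. The number of members at an unadjusted p under 0.05 in the higher direction ran from 6 to 13 when 1 sample was left out, against 11. The share of all genes that reached this ran from 7.18 to 10.6%, against 10.1%. With 1 sample left out, the median member difference ran from 0.14 to 0.24. The count over all genes moved much more. The 15 genes called became 513 with normexp, 36 with median centring, 3496 without the filter, 127 with all 8 arrays above background, 9 with the mean of probes, 46 with the replicate block, 418 with an intensity trend, 350 with array weights, and 1 to 14 with 1 sample left out; the cause was not tested. Of these, 229 were higher with normexp, 13 with median centring, 2710 without the filter, 12 with the block and 160 with array weights, against 8. Of the list genes named, Drc1, Cfap43, Dnah10, Myb, Deup1, Foxj1 and Ttc30a2 passed limma's threshold without the filter, Drc1 also with normexp, the trend and array weights, and Deup1 also with normexp. Members near 0 changed sign. Ift52 was at 0.024 with quantile normalization, 0.024 with the deposited table and 0.026 with array weights, Ift80 at -0.032 and Kif3a at -0.011 with median centring, Bbs10 at -0.0075 with the mean of probes, and Sufu, no member, at 0.075 with normexp. The probe of 1700019E19Rik was at -0.028 with median centring. With 1 sample left out, Ift52 ran from -0.049 to 0.066, Ift80 from -0.019 to 0.076, Kif3a from -0.0026 to 0.099, Kif3b from -0.064 to 0.031, Ttc21b from -0.22 to 0.035 and 1700019E19Rik from -0.042 to 0.097. Same-numbered samples correlated at 0.13, 0.47, 0.01 and -0.29 in their deviations, with 1 of 4 wild-type and 1 of 4 knockout samples closest to their own number, so the numbers were not taken to pair the samples. With the replicate block 46 genes and 0 members were called. Ift140 could not be tested with all 8 arrays above background. Probes near background, such as those of Ift140 and Wdr19, limit what can be said of these genes. The Traf3ip1 probe was dim too, but well above background on all 4 arrays of each group.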
